A study of Mus musculus with 16 samples.

Results

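The 10 genes described here make, remove, bind and read retinoic acid: Rdh10, Aldh1a2, Aldh1a3, Dhrs3, Cyp26a1, Cyp26b1, Crabp1, Crabp2, Rarb and Rarg. They were chosen by name, with earlier results of these data known, and matched to the gene symbols of the deposited CPM table (read counts scaled to library size). All 10 were found among 48709 gene features, and all 10 passed the filter on low counts that kept 18191 genes for testing. RNA had been sequenced from parotid epithelium, submandibular epithelium, parotid mesenchyme and submandibular mesenchyme of mouse embryos, and the 4 groups held 4 libraries each. All groups shared the ICR strain, an outbred stock, a wild-type genotype and embryonic day 13, and the labels name no treatment. The labels call the replicates biologically independent, give no number of embryos per library and state that the glands were harvested at that age, although the text on the series also speaks of a culture period. The 2 glands and the 2 tissue layers were compared, so each gene is described over gland, layer and their combination.

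Retinoic acid is made from vitamin A in a pair of oxidation steps: retinol dehydrogenases such as RDH10 turn retinol into retinaldehyde, and retinaldehyde dehydrogenases of the ALDH1A family turn that into retinoic acid. DHRS3 reduces retinaldehyde back to retinol, and the CYP26 cytochromes P450 oxidise retinoic acid for removal. Inside the cell it is carried by the CRABP proteins and read by nuclear receptors (RARs) that pair with RXRs on DNA. Retinoic acid acts over short distances between tissues in many embryonic organs, where making it in one layer and removing it in another sets its range, and retinoid supply is known to affect branching of embryonic salivary glands in culture.

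Total gene counts were 21307466 to 23885698 in parotid epithelium, 19090077 to 27646844 in submandibular epithelium, 19080629 to 25846015 in parotid mesenchyme and 16912258 to 18583164 in submandibular mesenchyme. All 8 epithelial markers (such as Epcam and Cdh1) and all 8 mesenchymal markers (such as Prrx1 and Twist1) averaged at least 1 CPM in their own layer in both glands. The epithelial marker sum was 1860 to 2340 CPM in parotid and 2100 to 2510 CPM in submandibular epithelium, against 12.5 to 32.7 CPM in parotid and 29.9 to 53.8 CPM in submandibular mesenchyme. The mesenchymal marker sum was 73.8 to 351 CPM in parotid and 14.5 to 265 CPM in submandibular epithelium, against 18700 to 26600 CPM in parotid and 12500 to 14500 CPM in submandibular mesenchyme. Mesenchymal RNA was thus measurable in epithelial libraries, with the highest sums in parotid epithelium replicates 3 (351 CPM) and 4 (319 CPM) and submandibular epithelium replicate 3 (265 CPM). Between the mesenchymes, sums of 5 neuron markers (263 to 617 CPM in parotid, 27.5 to 154 CPM in submandibular), of 5 skeletal muscle markers (292 to 1110 CPM in parotid, 135 to 290 CPM in submandibular) and of 5 smooth muscle and pericyte markers (280 to 463 CPM in parotid, 121 to 163 CPM in submandibular) were higher in parotid, and a sum of 5 erythroid markers was lower (1160 to 1850 CPM in parotid, 2740 to 3450 CPM in submandibular). The mesenchymes overlapped in their sums of endothelial, Schwann cell and leukocyte markers. Between the epithelia, a sum of 7 macrophage and leukocyte markers was higher in parotid (14.2 to 21.7 CPM, against 3.16 to 7 CPM in submandibular). The part of these cells in the gland differences below was not tested. Values that rest on the 3 epithelial libraries of high mesenchymal marker sum are also given without them, an alternative added after the data were seen.

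**Figure D1:**
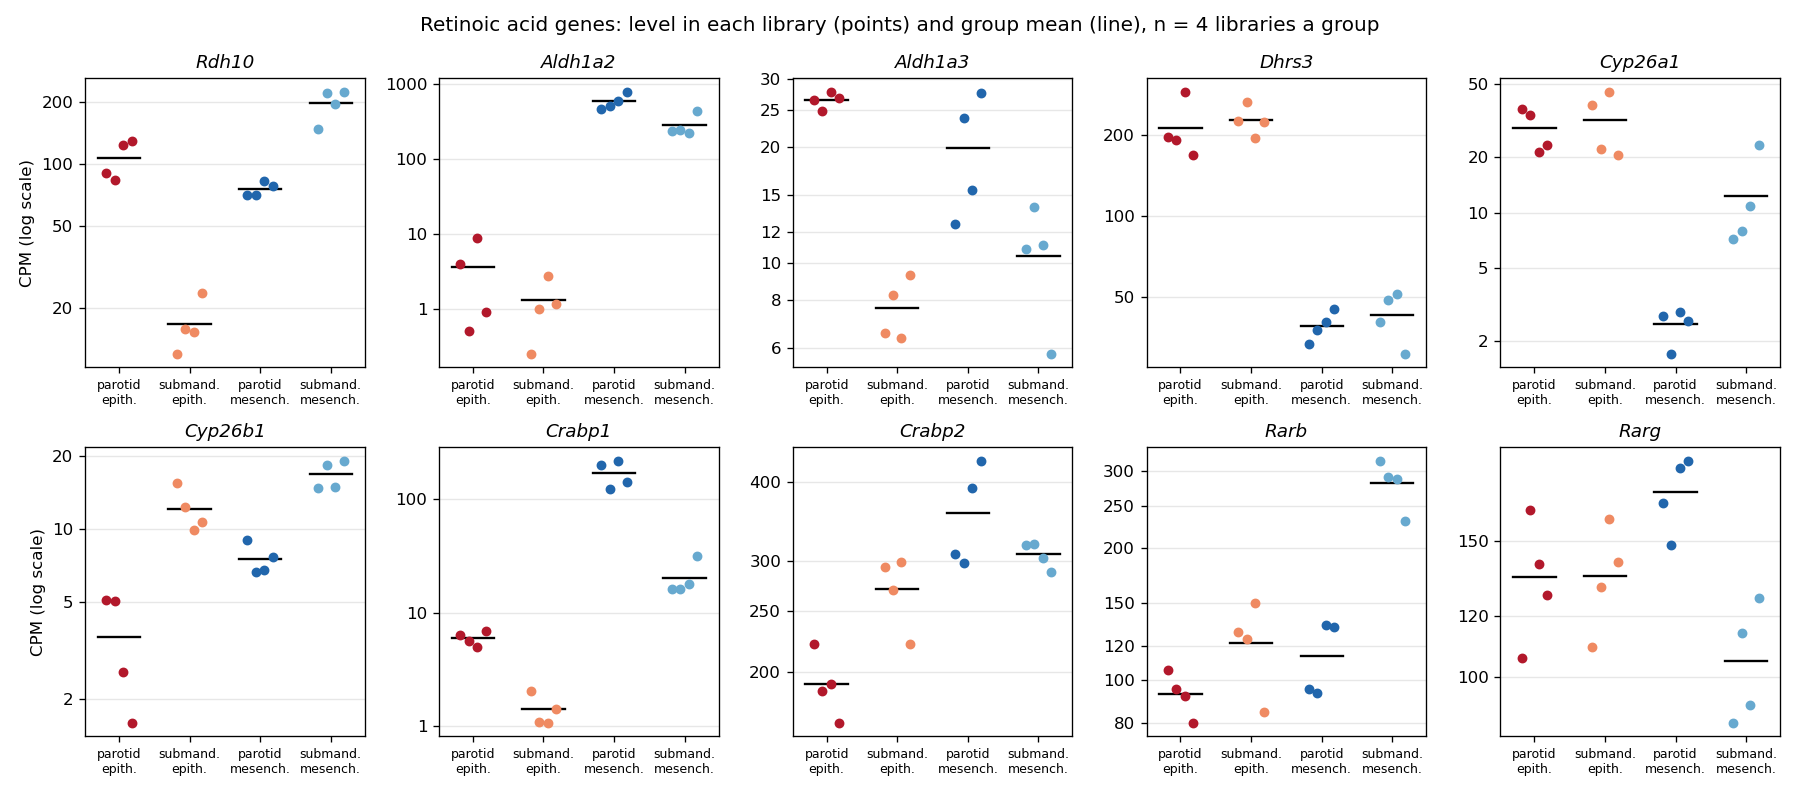
Level of each of the 10 genes in every library (points, CPM on a log axis that differs between panels) with the mean of the 4 libraries of a group (line). Aldh1a2 and Crabp1 stand high in the mesenchymes, Dhrs3 and Cyp26a1 in the epithelia, and Rdh10 is lowest in submandibular epithelium, with a mean of 16.7 CPM.

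The gland comparison in epithelium called 5 of the 10 genes, where 20.9% of all genes tested were called. Rdh10, Aldh1a3 and Crabp1 (3 of 10, against 11.2% of all genes) were higher in parotid than in submandibular epithelium, and Cyp26b1 and Crabp2 (2 of 10, against 9.72%) were lower. In mesenchyme 7 of the 10 genes were called between the glands, against 34.5% of all genes. Aldh1a3, Crabp1 and Rarg (3 of 10, against 20.8% of all genes) were higher in parotid mesenchyme, and Rdh10, Cyp26a1, Cyp26b1 and Rarb (4 of 10, against 13.7%) were lower. Aldh1a3 and Crabp1 were therefore higher and Cyp26b1 lower in the parotid gland in each layer, while Rdh10 was called in opposite directions. A gene is counted as called at a Benjamini-Hochberg adjusted p under 0.05 in edgeR's quasi-likelihood test, adjusted over all 18191 genes, and every adjusted p below comes from that test over all 16 libraries unless another fit is named. The median absolute log2 fold change between the glands was 1.02 over the 10 genes in epithelium and 1.1 in mesenchyme, against 0.29 and 0.36 over all genes. Because the genes were chosen with earlier results of these data known, an excess over all genes is no test of the pathway. Scaling by library totals alone in place of TMM (trimmed mean of M-values) shifted the median log2 fold change of all genes between the mesenchymes by -0.174, and gave a split of all calls of 2540 higher and 4245 lower in parotid, against 3785 higher and 2497 lower with TMM. The 10 genes' own calls between the glands were made under that scaling too.

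**Figure D2:**
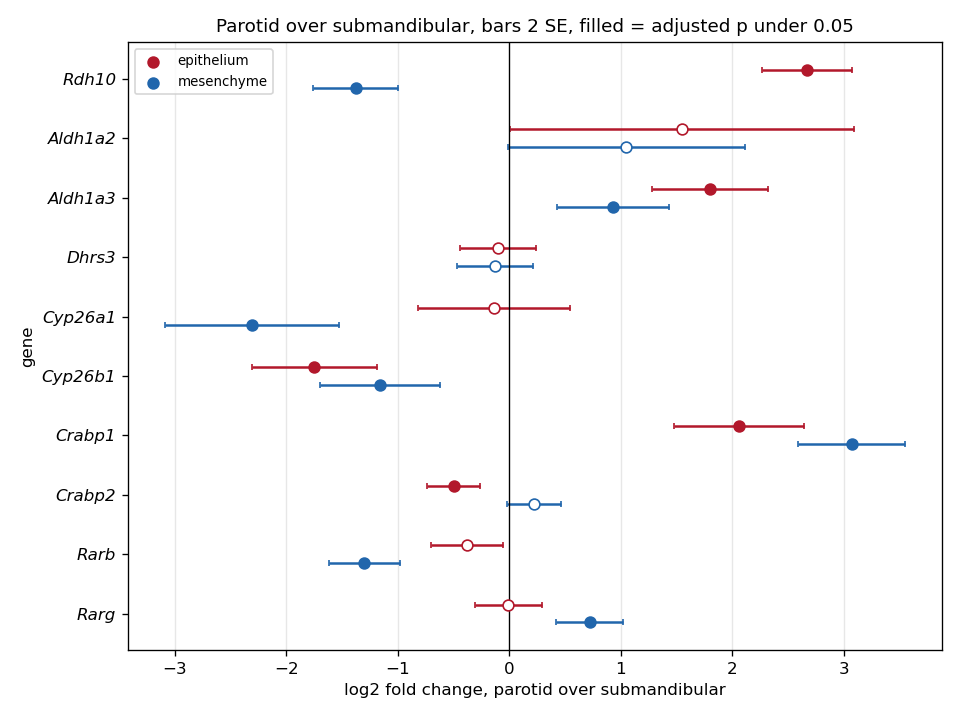
Log2 fold change of each gene, parotid over submandibular, in epithelium (red) and mesenchyme (blue), with bars of 2 SE and filled points for calls at an adjusted p under 0.05. Rdh10 lies at 2.67 in epithelium and -1.38 in mesenchyme, Crabp1 lies right of 0 and Cyp26b1 left of 0 in both layers.

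Between the layers 8 of the 10 genes were called in the parotid gland and 7 in the submandibular gland, shares to be read against 64.9% and 67% of all genes. In the parotid gland epithelium was higher for 3 of the 10 and lower for 5, where 31.4% and 33.5% of all genes were, and in the submandibular gland 3 were higher and 4 lower, where 33.3% and 33.7% were. In both glands Dhrs3 and Cyp26a1 were higher in epithelium than in mesenchyme, and Aldh1a2 and Crabp1 were lower. The median absolute log2 fold change between the layers was 0.99 over the 10 genes in the parotid gland and 1.29 in the submandibular gland, against 0.72 and 0.77 over all genes. The libraries of the compared groups did not overlap for 5 of the 10 genes between the epithelia, 7 between the mesenchymes, 7 between the parotid layers and 5 between the submandibular layers. The same held for 20.7%, 36.8%, 57.8% and 62.6% of all genes tested. These comparisons share groups of libraries with each other and with the gland comparisons, so their values stand side by side and are not independent.

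**Figure D3:**
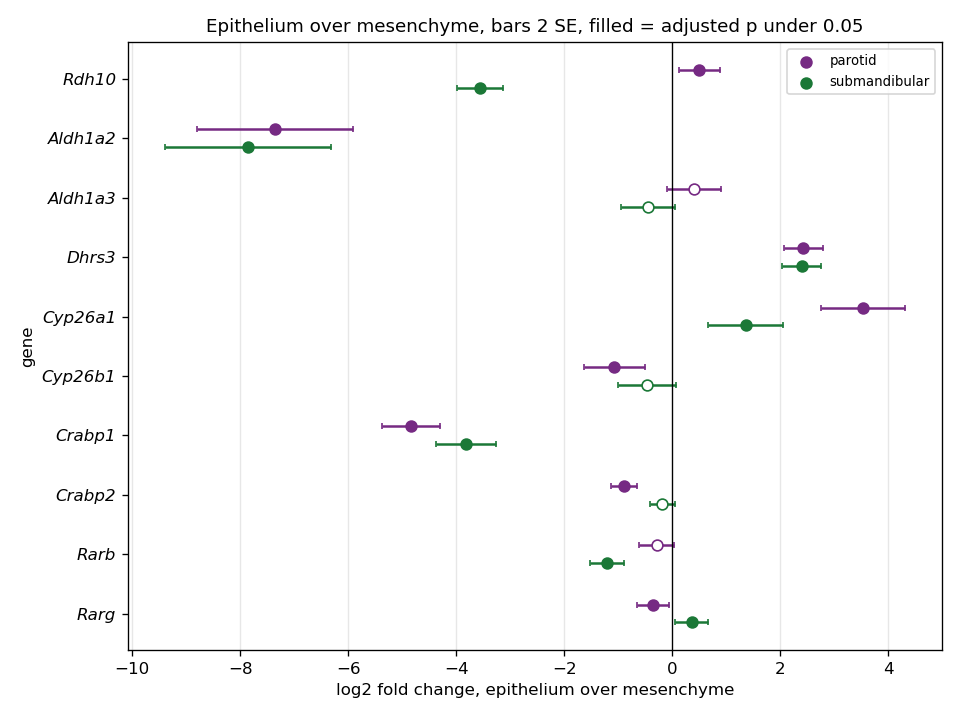
Log2 fold change of each gene, epithelium over mesenchyme, in the parotid gland (purple) and the submandibular gland (green), with bars of 2 SE and filled points for calls at an adjusted p under 0.05. Aldh1a2 is the farthest left, at -7.35 and -7.85, and Rdh10 lies at 0.50 in the parotid gland and -3.56 in the submandibular gland.

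Rdh10 (chr1:16105774-16133734, plus strand, GRCm38) encodes the retinol dehydrogenase that makes most retinaldehyde in the mouse embryo. It was at 90.3, 83.2, 124 and 129.8 CPM in the 4 parotid epithelium libraries, against 11.9, 15.8, 15.3 and 23.8 CPM in submandibular epithelium. In mesenchyme the order of the glands was the other way round, with 70.5, 70.5, 82.5 and 78.05 CPM in parotid mesenchyme, against 147, 220.3, 195 and 224 CPM in submandibular mesenchyme. No library of 1 group overlapped with any of another, and the order of the means was submandibular mesenchyme, parotid epithelium, parotid mesenchyme and submandibular epithelium, an 11.8-fold span. Rdh10 was 6.39 times higher in parotid than in submandibular epithelium (fold change 2.67 on the log2 scale, SE 0.20, adjusted p = 2.46e-07) and 2.61 times lower in parotid than in submandibular mesenchyme (fold change -1.38 on the log2 scale, SE 0.19, adjusted p = 3.13e-05). In bulk tissue, fewer cells of a type and less RNA per cell cannot be told apart. Within the submandibular gland it was 11.8 times lower in epithelium than in mesenchyme (fold change -3.56 on the log2 scale, SE 0.21, adjusted p = 2.67e-10). Within the parotid gland it was 1.42 times higher in epithelium than in mesenchyme (adjusted p = 0.0274), a call that did not hold without replicate 3 or 4 of parotid epithelium, without parotid mesenchyme replicate 1, 2 or 4 (adjusted p = 0.0615 to 0.0892), with no filter on low counts (0.0729) and without the 3 epithelial libraries of high mesenchymal marker sum (0.535).

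Dhrs3 (chr4:144892827-144928209, plus strand, GRCm38) encodes the retinaldehyde reductase that works against RDH10 and, in other systems, is induced by retinoic acid. It was at 196, 191, 289 and 169 CPM in parotid epithelium, against 225, 264, 194 and 222 CPM in submandibular epithelium. The mesenchymes held 33.6, 37.9, 40.4 and 45 CPM in the parotid, against 40.5, 48.7, 51.6 and 30.7 CPM in the submandibular gland. Every epithelial library lay above every mesenchymal library, and within a layer the libraries of the glands overlapped. Dhrs3 was 5.38 times higher in epithelium than in mesenchyme of the parotid gland (fold change 2.43 on the log2 scale, SE 0.18, adjusted p = 4.11e-09) and 5.28 times higher in the submandibular gland (fold change 2.40 on the log2 scale, SE 0.18, adjusted p = 4.10e-09). The gland difference missed the threshold in each layer, with log2 intervals of 2 SE of -0.44 to 0.24 in epithelium and -0.47 to 0.22 in mesenchyme. Per kilobase of exon, Rdh10 stood at 0.315 times the level of Dhrs3 in parotid epithelium (median of 4 libraries, range 0.301 to 0.542) and at 0.0488 times in submandibular epithelium (0.0373 to 0.0754). In mesenchyme it stood above Dhrs3, at 1.37 times in parotid (1.22 to 1.48) and 2.92 times in submandibular mesenchyme (2.56 to 5.14).

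Aldh1a2 (chr9:71215789-71296243, plus strand, GRCm38) encodes the retinaldehyde dehydrogenase of most embryonic mesoderm. It was at 3.94, 0.516, 9.003 and 0.915 CPM in parotid epithelium, against 0.252, 1.01, 2.81 and 1.17 CPM in submandibular epithelium. The mesenchymes held 468, 512, 591 and 788 CPM in the parotid, against 236, 241, 218 and 439.8 CPM in the submandibular gland. The mesenchymal libraries were all at 218 CPM or more and the epithelial libraries all at 9.003 CPM or less, the largest span of means among the 10 genes at 450-fold. It was 164 times lower in epithelium than in mesenchyme of the parotid gland (fold change -7.35 on the log2 scale, SE 0.72, adjusted p = 6.05e-07) and 217 times lower in the submandibular gland (fold change -7.85 on the log2 scale, SE 0.77, adjusted p = 5.56e-07). The epithelial level was highest in replicate 3 of each gland, where the mesenchymal marker sum was highest too, but was low in parotid epithelium replicate 4, where that sum was also high. As a share of the mean of the mesenchyme of the same gland, Aldh1a2 was at 0.669, 0.0875, 1.53 and 0.155% in parotid epithelium, where the marker sum was at 0.585, 0.328, 1.56 and 1.42%. In submandibular epithelium Aldh1a2 was at 0.0886, 0.355, 0.99 and 0.413% and the marker sum at 0.108, 0.106, 1.93 and 0.52%. How far mesenchymal RNA makes up the epithelial level was not tested. Without parotid epithelium replicate 3 the log2 fold change was -8.32 in the parotid gland, and without submandibular epithelium replicate 3 it was -8.47 in the submandibular gland. Without the 3 epithelial libraries of high mesenchymal marker sum these values were -8.06 and -8.48, and limma-voom gave -8.11 in the parotid gland.

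Between the mesenchymes Aldh1a2 was 2.08 times higher in parotid than in submandibular, and the libraries of the glands did not overlap. The edgeR fit over 16 libraries did not call this difference (fold change 1.05 on the log2 scale, SE 0.53, adjusted p = 0.145, log2 interval of 2 SE -0.01 to 2.12). The fit to the 8 mesenchymal libraries alone (log2 fold change 0.98, adjusted p = 0.0125), limma-voom (1.09, adjusted p = 0.0035) and the fit without the 3 epithelial libraries of high mesenchymal marker sum (1.06, adjusted p = 0.0459) did. In submandibular mesenchyme replicate 4 stood apart, at 439.8 CPM with the other 3 at 241 CPM or less. Between the epithelia the log2 fold change was 1.55 (SE 0.77, adjusted p = 0.17), with overlapping libraries and levels of 9.003 CPM or less.

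Aldh1a3 (chr7:66390890-66427517, minus strand, GRCm38) encodes the retinaldehyde dehydrogenase known from eye, nasal and other epithelia. It was at 26.4, 24.8, 27.9 and 26.8 CPM in parotid epithelium, against 6.54, 8.22, 6.37 and 9.28 CPM in submandibular epithelium. Mesenchyme held 12.6, 23.8, 15.4 and 27.7 CPM in the parotid, against 10.9, 13.9, 11.1 and 5.77 CPM in submandibular. The 4 parotid epithelium libraries lay within a narrow band above all submandibular libraries, while in mesenchyme the groups overlapped in 1 range of 12.6 to 13.9 CPM. Aldh1a3 was 3.48 times higher in parotid than in submandibular epithelium (fold change 1.80 on the log2 scale, SE 0.26, adjusted p = 0.000115) and 1.91 times higher in mesenchyme (fold change 0.93 on the log2 scale, SE 0.25, adjusted p = 0.00832). Neither layer comparison was called (adjusted p = 0.151 in the parotid and 0.126 in the submandibular gland). The submandibular one was called without submandibular mesenchyme replicate 4 (log2 fold change -0.65, adjusted p = 0.0199) and with library totals (-0.57, adjusted p = 0.0492).

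The epithelia and mesenchymes thus differed in which retinaldehyde dehydrogenase gene was the more abundant. Per kilobase of exon, Aldh1a2 was at 66.9 times the level of Aldh1a3 in parotid mesenchyme (median, range 43.9 to 78.1) and at 42.2 times in submandibular mesenchyme (35.3 to 155). In the epithelia it was below Aldh1a3 in every library, at 0.187 times in parotid (0.0425 to 0.659) and 0.254 times in submandibular epithelium (0.0784 to 0.901). Of the summed level of Aldh1a1, Aldh1a2 and Aldh1a3 per kilobase, Aldh1a3 held a median of 82.4% in parotid epithelium and 47.5% in submandibular epithelium, where Aldh1a1 held 40.5%. Aldh1a7, a close relative of Aldh1a1 that may share reads with it, was left out of this sum. Aldh1a7 averaged 57.04 CPM per kilobase in submandibular epithelium and 2.91 in parotid epithelium. Aldh1a2 held 97.8 to 98.7% of the sum in parotid and 97 to 99.3% in submandibular mesenchyme.

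Cyp26a1 (chr19:37697798-37701536, plus strand, GRCm38) encodes a retinoic acid hydroxylase whose gene is itself induced by retinoic acid. It was at 36.3, 33.7, 21.3 and 23.4 CPM in parotid epithelium, against 38.5, 22.1, 45.4 and 20.6 CPM in submandibular epithelium, where the libraries overlapped. In mesenchyme it was at 2.74, 1.699, 2.88 and 2.57 CPM in the parotid, against 7.15, 7.89, 10.9 and 23.4 CPM in submandibular, where replicate 4 reached the range of the epithelia. Cyp26a1 was 4.99 times lower in parotid than in submandibular mesenchyme (fold change -2.31 on the log2 scale, SE 0.39, adjusted p = 0.000231), and the log2 fold change without submandibular mesenchyme replicate 4 was -1.80. It was 11.6 times higher in epithelium than in mesenchyme of the parotid gland (fold change 3.53 on the log2 scale, SE 0.39, adjusted p = 8.27e-07) and 2.57 times higher in the submandibular gland (fold change 1.36 on the log2 scale, SE 0.35, adjusted p = 0.00273). Between the epithelia the difference missed the threshold, with a log2 interval of 2 SE of -0.82 to 0.54. The epithelial marker sum of the parotid mesenchyme libraries was 0.586 to 1.53% of that in parotid epithelium and Cyp26a1 was at 5.92 to 10.1% of its epithelial mean there. In submandibular mesenchyme these shares were 1.28 to 2.3% for the markers and 22.6 to 74% for Cyp26a1.

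Cyp26b1 (chr6:84571414-84593908, minus strand, GRCm38) encodes the CYP26 enzyme known from limb, skin and craniofacial tissues. It was at 5.13, 5.07, 2.59 and 1.59 CPM in parotid epithelium, against 15.5, 12.3, 9.97 and 10.7 CPM in submandibular epithelium. The mesenchymal libraries held 9.07, 6.68, 6.83 and 7.702 CPM in the parotid, against 14.9, 18.4, 14.97 and 19.2 CPM in submandibular. In each layer every parotid library lay below every submandibular library. Cyp26b1 was 3.37 times lower in parotid than in submandibular epithelium (fold change -1.75 on the log2 scale, SE 0.28, adjusted p = 0.000379) and 2.23 times lower in mesenchyme (fold change -1.16 on the log2 scale, SE 0.27, adjusted p = 0.00335). In the parotid gland it was 2.11 times lower in epithelium than in mesenchyme (fold change -1.07 on the log2 scale, SE 0.28, adjusted p = 0.00311). In the submandibular gland the layers were not called apart (adjusted p = 0.129), but were in limma-voom (adjusted p = 0.0478), in the fit to its 8 libraries (0.0214), without parotid epithelium replicate 4 (0.0478) and without the 3 epithelial libraries of high mesenchymal marker sum (0.049).

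Per kilobase of exon, Cyp26a1 stood above Cyp26b1 in every epithelial library, at a median of 20.6 times in parotid (range 17.9 to 39.7) and 5.95 times in submandibular epithelium (4.82 to 12.3). In mesenchyme the pair was closer, at 0.857 times in parotid (0.686 to 1.14) and 1.63 times in submandibular mesenchyme (1.16 to 3.29). The third member of the family, Cyp26c1, averaged 0.688 CPM in parotid epithelium, 0.345 CPM in submandibular epithelium, 0.0781 CPM in parotid mesenchyme and 0.326 CPM in submandibular mesenchyme. Its difference between the parotid layers (fold change 3.13 on the log2 scale, SE 0.78, adjusted p = 0.00208) and its interaction of gland and layer (3.06, adjusted p = 0.0472) were called, at levels under 1 CPM in all groups.

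The mean summed level of the retinaldehyde dehydrogenase genes Aldh1a1, Aldh1a2 and Aldh1a3 was lower in epithelium than in mesenchyme of both glands. That of the Cyp26 genes was higher in epithelium, and neither difference was tested. Per kilobase of exon, the dehydrogenase sum averaged 7.52 ± 1.95 CPM in parotid epithelium and 3.51 ± 0.63 CPM in submandibular epithelium, against 265 ± 63.6 CPM in parotid mesenchyme and 128 ± 45.4 CPM in submandibular mesenchyme (SD, n = 4 each). The Cyp26 sum averaged 15.5 ± 4.13 CPM per kilobase in parotid epithelium and 18.4 ± 6.30 in submandibular epithelium, against 2.71 ± 0.36 in parotid mesenchyme and 9.56 ± 4.19 in submandibular mesenchyme. In the submandibular gland the Cyp26 sums of the layers overlapped (12.6 to 25.1 in epithelium, 6.5 to 15.7 in mesenchyme). Cyp26b1, a part of that sum, had the lower mean in epithelium in both glands and was called lower in the parotid gland. The ratio of the dehydrogenase sum to the Cyp26 sum was below 1 in all 8 epithelial libraries and above 10 in all 8 mesenchymal libraries. Its median was 0.454 in parotid epithelium (range 0.309 to 0.894), 0.211 in submandibular epithelium (0.119 to 0.326), 99.9 in parotid mesenchyme (67.5 to 129) and 13.4 in submandibular mesenchyme (11.9 to 16.5). In mesenchyme the ratios of the glands did not overlap, and in epithelium they overlapped between 0.309 and 0.326. These are ratios of transcript levels and say nothing of enzyme activity. The dehydrogenase sum leaves out Aldh1a7, and reads that Aldh1a7 may share with Aldh1a1 were not examined.

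**Figure D4:**
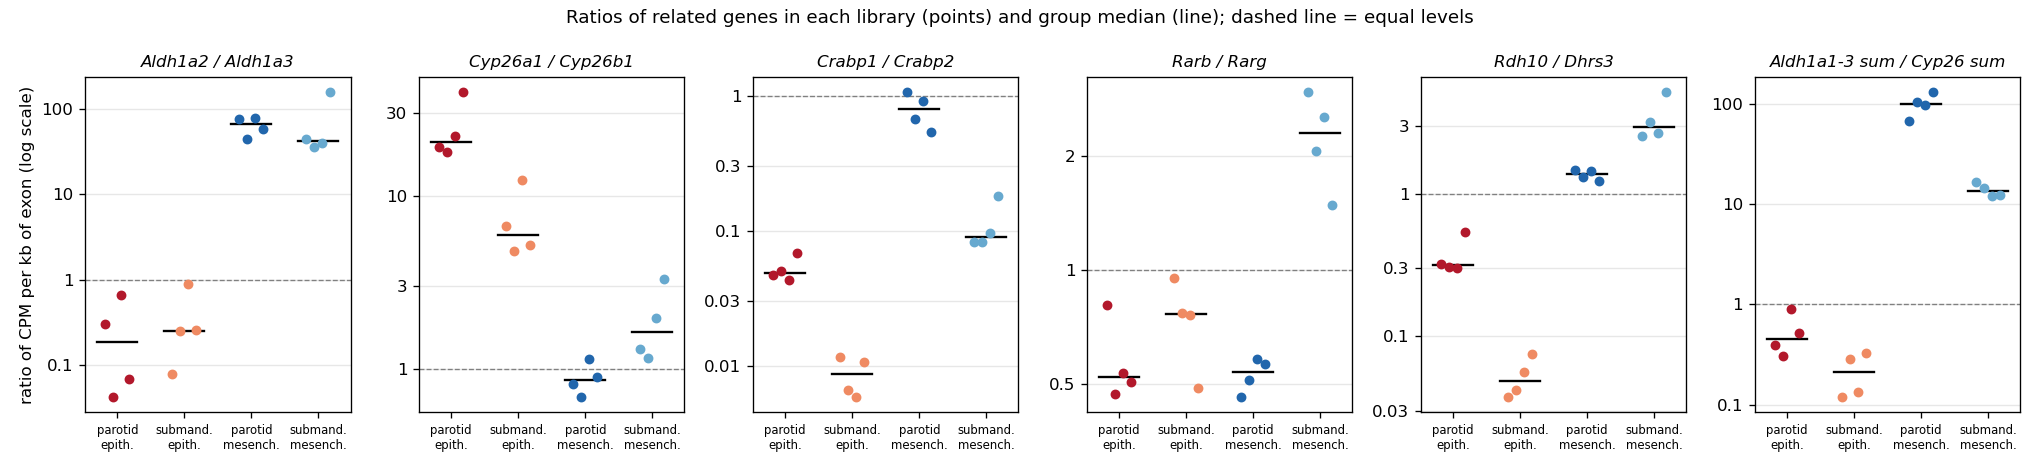
Ratio of the levels of paired genes per kilobase of exon in every library (points, log axis) with the group median (line) and equality (dashed). The ratio of the summed Aldh1a1, Aldh1a2 and Aldh1a3 level to the summed Cyp26 level lies between 0.119 and 0.894 in the epithelia and between 11.9 and 129 in the mesenchymes.

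Crabp1 (chr9:54764748-54773110, plus strand, GRCm38) encodes a cytosolic retinoic acid carrier known from neural crest mesenchyme and from some neurons. It was at 6.36, 5.68, 4.996 and 6.89 CPM in parotid epithelium, against 2.05, 1.09, 1.06 and 1.43 CPM in submandibular epithelium. Mesenchyme had 198, 122, 218 and 143 CPM in the parotid, against 16.03, 16.1, 17.7 and 31.4 CPM in submandibular. No groups overlapped, and the means ran from parotid mesenchyme through submandibular mesenchyme and parotid epithelium down to submandibular epithelium, a 121-fold span. Crabp1 was 4.25 times higher in parotid than in submandibular epithelium (fold change 2.06 on the log2 scale, SE 0.29, adjusted p = 0.000108) and 8.39 times higher in mesenchyme (fold change 3.07 on the log2 scale, SE 0.24, adjusted p = 9.85e-08). It was 28.5 times lower in epithelium than in mesenchyme of the parotid gland (fold change -4.83 on the log2 scale, SE 0.27, adjusted p = 1.74e-10) and 14.4 times lower in the submandibular gland (fold change -3.82 on the log2 scale, SE 0.28, adjusted p = 4.69e-09). As a share of the mean of the mesenchyme of the same gland, Crabp1 was at 2.93 to 4.04% in parotid epithelium, where the mesenchymal marker sum was at 0.328 to 1.56%, and at 5.22 to 10.1% in submandibular epithelium, where that sum was at 0.106 to 1.93%.

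Markers of neurons, which can express Crabp1, moved with it between the mesenchymes. Of the 5 neuron markers, whose sum was higher in parotid, 4 were at 1 CPM or more in each of the mesenchymes. Prph, a neuronal intermediate filament gene, averaged 15.1 CPM in parotid mesenchyme, against 0.168 CPM in submandibular mesenchyme. All 5 skeletal muscle markers were at 1 CPM or more in both mesenchymes. The part of neurons and muscle in the Crabp1 difference was not tested. Across the 4 parotid mesenchyme libraries Crabp1 and the neuron sum did not run together, since replicate 4 had the highest neuron sum at 617 CPM with 143 CPM of Crabp1, and replicate 1 the lowest at 263 CPM with 198 CPM.

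Crabp2 (chr3:87948666-87953376, plus strand, GRCm38) encodes the carrier that brings retinoic acid to its nuclear receptors. It was at 221, 187, 192 and 166 CPM in parotid epithelium, against 293, 269, 299 and 222 CPM in submandibular epithelium. In mesenchyme it was at 308, 298, 391 and 433 CPM in the parotid, against 318, 319, 303 and 288 CPM in submandibular. The epithelia did not overlap but nearly met (221 CPM in the highest parotid and 222 CPM in the lowest submandibular library), and the mesenchymes overlapped. Crabp2 was 1.42 times lower in parotid than in submandibular epithelium (fold change -0.50 on the log2 scale, SE 0.12, adjusted p = 0.00895), a call lost without the 3 epithelial libraries of high mesenchymal marker sum (log2 fold change -0.36, adjusted p = 0.196). It was 1.87 times lower in epithelium than in mesenchyme of the parotid gland (fold change -0.90 on the log2 scale, SE 0.12, adjusted p = 6.30e-06), and the submandibular layers were not called apart (fold change -0.18 on the log2 scale, SE 0.12, adjusted p = 0.205), except with library totals (-0.30, adjusted p = 0.0418). Per kilobase of exon, Crabp1 reached 0.8 times the level of Crabp2 in parotid mesenchyme (median, range 0.544 to 1.06), against 0.0898 times in submandibular mesenchyme (0.0831 to 0.18). In the epithelia it reached 0.0488 times in parotid (0.043 to 0.0685) and 0.00864 times in submandibular epithelium (0.00584 to 0.0115).

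Rarb (chr14:16430839-16819156, minus strand, GRCm38) encodes the retinoic acid receptor beta, whose shorter transcripts are induced by retinoic acid. It was at 106, 95.4, 92.4 and 79.9 CPM in parotid epithelium, against 129, 124, 150.1 and 84.9 CPM in submandibular epithelium. Levels in mesenchyme were 95.6, 93.6, 134 and 132 CPM in the parotid, against 317, 290.2, 288 and 231 CPM in submandibular. All 4 submandibular mesenchyme libraries lay above all 12 others, whose groups overlapped with their neighbours. Rarb was 2.47 times lower in parotid than in submandibular mesenchyme (fold change -1.30 on the log2 scale, SE 0.16, adjusted p = 1.11e-05) and 2.31 times lower in submandibular epithelium than in submandibular mesenchyme (fold change -1.21 on the log2 scale, SE 0.16, adjusted p = 4.81e-06). The epithelia were not called apart (log2 fold change -0.38, interval of 2 SE -0.71 to -0.06, adjusted p = 0.102), except without submandibular epithelium replicate 4 (-0.50, adjusted p = 0.0205). The parotid layers were not called apart either (adjusted p = 0.13). Of the exons of Rarb, 1793 bases (34.1%) overlap Top2b on the opposite strand and 227 bases (4.31%) an antisense gene, and the library kit does not mark strand, so reads there cannot be assigned. Top2b, which encodes a DNA topoisomerase, was at 417 CPM in parotid epithelium, 455 CPM in submandibular epithelium, 425 CPM in parotid mesenchyme and 404 CPM in submandibular mesenchyme, and was called in no comparison.

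Rarb and Cyp26a1 were the members with a retinoic acid response motif close to their start, and the bases before that start are shown for this reason. RefSeq promoter windows of GRCm38.p6, from 250 bases before to 50 bases after a transcription start, were at hand for 7 of the 10 genes, in 10 windows. They were searched on both strands for 2 hexamers in the same orientation with 5 bases between them, each the hexamer spelled AGGTCA, the one spelled AGTTCA, the one spelled GGGTCA or the one spelled GGTTCA, the arrangement that RAR and RXR pairs are known to bind. A match lay in windows of these 2 members, and in 32 of 32851 windows (0.0974%). Repeats with 2 or 1 bases between the hexamers lay in 0.268% and 0.222% of all windows and in none of the members' windows. The 130 bases that end just before each start are printed 5′ to 3′ on the strand of the gene, with the match in capitals. The Rarb stretch is chr14:16575477-16575606 on the minus strand, inside the longer annotated span of the gene, with the match at positions -53 to -37 from the start. The Cyp26a1 stretch is chr19:37697678-37697807 on the plus strand, with the match at -32 to -16, read as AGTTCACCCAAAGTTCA on the opposite strand.
Rarb: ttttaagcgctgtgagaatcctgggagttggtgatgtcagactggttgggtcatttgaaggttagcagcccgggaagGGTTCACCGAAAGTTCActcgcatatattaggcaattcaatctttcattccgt
Cyp26a1: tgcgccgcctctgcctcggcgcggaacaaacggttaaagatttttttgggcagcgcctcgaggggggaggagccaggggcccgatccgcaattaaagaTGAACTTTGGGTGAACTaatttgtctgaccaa
A match of letters is a description and does not show that a receptor binds there. Rarb was highest in submandibular mesenchyme (mean 281 CPM) and Cyp26a1 in the epithelia, so these genes did not share 1 order of groups. Between the mesenchymes both were lower in parotid.

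Rarg (chr15:102234938-102257517, minus strand, GRCm38) encodes the retinoic acid receptor gamma, known from skin and cartilage precursors. It was at 106, 164, 139.9 and 128 CPM in parotid epithelium, against 109, 131, 159.8 and 141 CPM in submandibular epithelium. In mesenchyme it was at 168, 148, 186 and 190.1 CPM in the parotid, against 87.3, 114, 92.2 and 126 CPM in submandibular. The mesenchymes did not overlap, while the epithelia lay between them and overlapped with each. Rarg was 1.65 times higher in parotid than in submandibular mesenchyme (fold change 0.72 on the log2 scale, SE 0.15, adjusted p = 0.00112). Between the epithelia the log2 fold change was -0.01, with an interval of 2 SE of -0.30 to 0.29. It was 1.29 times lower in epithelium than in mesenchyme of the parotid gland (adjusted p = 0.039) and 1.29 times higher in epithelium of the submandibular gland (adjusted p = 0.0385). The parotid layer call was lost in 8 of 16 fits that left out 1 library (parotid epithelium replicate 1, 3 or 4, parotid mesenchyme replicate 1, 3 or 4, submandibular epithelium replicate 2 or 4, adjusted p = 0.0546 to 0.155), and the submandibular one in 9 (parotid epithelium replicate 4, parotid mesenchyme replicate 1, 3 or 4, submandibular epithelium replicate 2, 3 or 4, submandibular mesenchyme replicate 1 or 3, adjusted p = 0.0565 to 0.158). Both were lost without the 3 epithelial libraries of high mesenchymal marker sum (adjusted p = 0.0926 and 0.203), and the submandibular one also in DESeq2 (0.0751), with its size factors (0.0746), with library totals (0.148) and with no filter (0.111).

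Rara, the third receptor gene, averaged 87.2 ± 22.6 CPM in parotid epithelium, 65.3 ± 11.6 CPM in submandibular epithelium, 103 ± 7.23 CPM in parotid mesenchyme and 83.7 ± 10.4 CPM in submandibular mesenchyme (SD, n = 4 each), and was called in no comparison. Per kilobase of exon, Rarb stood above Rarg in all 4 submandibular mesenchyme libraries, at a median of 2.29 times (range 1.48 to 2.94). It stood below Rarg in the other 12 libraries, at 0.52 times in parotid epithelium (0.47 to 0.807), 0.764 times in submandibular epithelium (0.489 to 0.951) and 0.538 times in parotid mesenchyme (0.461 to 0.582). Rarb held a median of 55.6% of the summed receptor level per kilobase in submandibular mesenchyme, against 23.6% in parotid epithelium, 34.7% in submandibular epithelium and 25% in parotid mesenchyme. The Rarb level per kilobase uses all its exons, of which 34.1% overlap Top2b. How reads there were counted is not given. The order of Rarb and Rarg and the receptor shares depend on that and were not tested for it.

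Whether the gland difference itself differed between the layers was tested with the interaction of gland and layer, given as the log2 fold change in epithelium minus that in mesenchyme. It was called for 5 of the 10 genes, where 20.9% of all genes tested were called. It lay above 0 for 3 of these, against 8.67% of all genes, and below 0 for 2, against 12.2%. Rdh10 had an interaction of 4.06 (SE 0.28, adjusted p = 5.21e-08), Cyp26a1 of 2.17 (SE 0.51, adjusted p = 0.00639) and Rarb of 0.92 (SE 0.23, adjusted p = 0.00819). For Rdh10 the gland difference had opposite signs in the layers, and for Cyp26a1 and Rarb it was called in mesenchyme and not in epithelium. Crabp2 had an interaction of -0.72 (SE 0.17, adjusted p = 0.00685) and Rarg of -0.73 (SE 0.21, adjusted p = 0.0194). Without the 3 epithelial libraries of high mesenchymal marker sum, the calls of Crabp2 (-0.59, adjusted p = 0.0657) and Rarg (-0.64, adjusted p = 0.11) were lost, and that of Rarg also without parotid epithelium replicate 4, parotid mesenchyme replicate 3 or submandibular epithelium replicate 3 (adjusted p = 0.0504 to 0.0573). With library totals the split of the interaction calls over all genes was 2380 higher and 1599 lower, against 1577 higher and 2222 lower with TMM.

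The interaction was not called for the other 5 genes. It was 0.49 for Aldh1a2 (interval of 2 SE -1.37 to 2.36), 0.03 for Dhrs3 (-0.45 to 0.51) and -0.59 for Cyp26b1 (-1.37 to 0.18). For Aldh1a3 it was 0.87 (SE 0.35, adjusted p = 0.0946), and it was called with library totals (1.02, adjusted p = 0.0414) and without parotid mesenchyme replicate 4 (1.05, adjusted p = 0.0394) or submandibular mesenchyme replicate 4 (1.07, adjusted p = 0.023). For Crabp1 it was -1.01 (SE 0.37, adjusted p = 0.0654), and it was called in DESeq2 (-0.98, adjusted p = 0.034) and without parotid mesenchyme replicate 2 (-1.12, adjusted p = 0.0402) or submandibular mesenchyme replicate 4 (-1.30, adjusted p = 0.00665).

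Beside the 10 genes, 55 other genes of retinoid supply, metabolism, reception and response were listed, of which 45 were tested (errors below are SD over the 4 libraries of a group). Between the epithelia 14 of the 45 were called (9 higher and 5 lower in parotid), or 31.1% against 20.9% of all genes. Between the mesenchymes 24 were called (8 higher and 16 lower in parotid), or 53.3% against 34.5% of all genes. Between the layers 33 were called in the parotid gland (17 up and 16 down in epithelium) and 32 in the submandibular gland (16 each way), shares of 73.3% and 71.1% that lie near the 64.9% and 67% of all genes. The interaction was called for 17, with 14 above and 3 below 0, or 37.8% against 20.9% of all genes. By direction, 8.67% of all genes lay above 0 and 12.2% below in the interaction. Between the epithelia 11.2% of all genes were higher and 9.72% lower in parotid, and between the mesenchymes 20.8% and 13.7%. The other 10 listed genes did not pass the filter on low counts. Between the epithelia 9 of the 45 were called without the 3 epithelial libraries of high mesenchymal marker sum.

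Of 9 tested genes of retinoid supply, uptake and storage, 3 were higher in parotid than in submandibular epithelium and none lower, where 11.2% of all genes were higher and 9.72% lower. Stra6, which encodes the retinol uptake receptor, averaged 66.04 ± 6.18 CPM in parotid epithelium, against 29.9 ± 13.3 CPM in submandibular epithelium (fold change 1.14 on the log2 scale, SE 0.22, adjusted p = 0.0018). Rbp4, the plasma retinol carrier, averaged 1.58 CPM in the parotid, against 0.0963 CPM in submandibular epithelium (fold change 3.89 on the log2 scale, SE 1.10, adjusted p = 0.0219), from 134 counts, 99 of them in 1 library, and 10 counts. The Rbp4 value rests on few libraries: without parotid epithelium replicate 4 the log2 fold change was 2.34 (adjusted p = 0.0973), without the 3 epithelial libraries of high mesenchymal marker sum 1.68 (0.426) and in limma-voom 2.71 (0.3), while without submandibular epithelium replicate 1 it was 5.04. In mesenchyme 3 of the 9 were higher and 2 lower in parotid, where 20.8% of all genes were higher and 13.7% lower. Lpl, a lipoprotein lipase gene, was among the lower ones, at 70.8 ± 11.1 CPM in the parotid, against 256 ± 68.9 CPM in submandibular mesenchyme (fold change -1.86 on the log2 scale, SE 0.18, adjusted p = 6.75e-07). Between the layers 4 of the 9 were lower and none higher in parotid epithelium, where 33.5% of all genes were lower and 31.4% higher. In submandibular epithelium 5 were lower and 2 higher, against 33.7% and 33.3% of all genes. Rbp4 averaged 0.0963 ± 0.109 CPM in submandibular epithelium, against 29.03 ± 8.496 CPM in submandibular mesenchyme (fold change -8.09 on the log2 scale, SE 1.00, adjusted p = 3.98e-06; -9.24 without submandibular epithelium replicate 1). The interaction was called for 4 of the 9, all above 0, where 8.67% of all genes lay above and 12.2% below. Among the 4 were Lpl at 2.80 (SE 0.26, adjusted p = 1.18e-06) and Rbp4 at 4.64 (adjusted p = 0.0176). The Rbp4 interaction was 3.10 without parotid epithelium replicate 4 and 5.80 without submandibular epithelium replicate 1, and its call was lost with no filter (adjusted p = 0.0584), in limma-voom (0.193) and without the 3 epithelial libraries of high mesenchymal marker sum (0.229).

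Of 13 tested dehydrogenases, reductases and P450 enzymes, 3 were lower in parotid than in submandibular epithelium and 5 lower in parotid than in submandibular mesenchyme, with none higher in either layer. These shares of 23.1% and 38.5% stand beside 9.72% and 13.7% of all genes called lower in parotid. In either direction 20.9% and 34.5% of all genes were called. Aldh1a1, the remaining retinaldehyde dehydrogenase gene, averaged 0.978 ± 0.307 CPM in the parotid, against 6.34 ± 2.03 CPM in submandibular epithelium (fold change -2.70 on the log2 scale, SE 0.35, adjusted p = 4.65e-05). In mesenchyme it had 2 counts in all parotid libraries and 115 in all submandibular libraries, so the level was higher in submandibular by 62.2 times with a 95% exact counting interval of 16.8 to 519 that covers counting error only. Aldh1a7, a close relative of Aldh1a1 with which it may share reads, averaged 6.01 ± 2.71 CPM in the parotid, against 118 ± 30.2 CPM in submandibular epithelium (fold change -4.30 on the log2 scale, SE 0.40, adjusted p = 4.00e-06). It averaged 0.1096 CPM in the parotid, against 2.33 CPM in submandibular mesenchyme (fold change -4.23 on the log2 scale, SE 0.72, adjusted p = 0.000317; -5.35 without parotid mesenchyme replicate 3). Between the layers 7 of the 13 were higher and 3 lower in parotid epithelium, where 31.4% of all genes were higher and 33.5% lower. In submandibular epithelium 5 were higher and 3 lower, against 33.3% and 33.7% of all genes. Aldh1a7 and Aldh1a1 were among the higher ones in both glands. Aldh1a7 had a log2 fold change of 5.59 between the parotid layers (6.71 without parotid mesenchyme replicate 3) and 5.66 between the submandibular layers. Aldh1a1 had 84 counts in all parotid epithelium libraries against the 2 of parotid mesenchyme, 40.4 times the level there (95% exact counting interval 10.9 to 339). Its interaction of 2.95 (SE 0.75, adjusted p = 0.00956) was called. In all, 3 of the 13 had a called interaction, each above 0, a share of 23.1%. Of all genes 8.67% were called above 0 and 20.9% in either direction.

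Of 15 tested receptors, partners and cofactors, 4 were higher and 2 lower in parotid than in submandibular epithelium. In mesenchyme 4 were higher and 4 lower in parotid. Of all genes 20.9% were called between the epithelia (11.2% higher, 9.72% lower) and 34.5% between the mesenchymes (20.8% higher, 13.7% lower). Rxrg, an RXR gene, averaged 20.7 ± 3.06 CPM in the parotid, against 1.99 ± 0.804 CPM in submandibular mesenchyme (fold change 3.38 on the log2 scale, SE 0.47, adjusted p = 3.12e-05). Fabp5, a fatty acid carrier that can also take retinoic acid, averaged 154 ± 19.4 CPM in the parotid, against 59.4 ± 11.5 CPM in submandibular mesenchyme (fold change 1.38 on the log2 scale, SE 0.13, adjusted p = 4.66e-07), and its interaction of -1.85 was called (adjusted p = 1.75e-06). Nr2f2, an orphan nuclear receptor gene, averaged 23.5 ± 5.21 CPM in the parotid, against 37.6 ± 10.8 CPM in submandibular epithelium (fold change -0.68 on the log2 scale, SE 0.18, adjusted p = 0.0132), a call lost without submandibular epithelium replicate 3 (-0.44, adjusted p = 0.0521). Between the layers 5 were higher and 6 lower in parotid epithelium, where 31.4% of all genes were higher and 33.5% lower. In submandibular epithelium 4 were higher and 6 lower, against 33.3% and 33.7% of all genes. The orphan receptor gene Nr2f1 averaged 0.461 ± 0.316 CPM in parotid epithelium, against 75.7 ± 10.5 CPM in parotid mesenchyme (fold change -7.34 on the log2 scale, SE 0.47, adjusted p = 2.18e-09; -8.07 in limma-voom). In the submandibular gland it averaged 0.466 ± 0.545 CPM in epithelium and 76.8 ± 5.92 CPM in mesenchyme (fold change -7.51 on the log2 scale, SE 0.47, adjusted p = 1.56e-09; -8.56 without submandibular epithelium replicate 3). Rxrg was lower in parotid epithelium than in parotid mesenchyme (fold change -6.76 on the log2 scale, SE 0.60, adjusted p = 3.73e-08; -8.29 without parotid epithelium replicate 4).

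Of 8 tested genes known to be induced by retinoic acid in other systems, 2 were higher and none lower in parotid than in submandibular epithelium, while 1 was higher and 5 were lower in parotid than in submandibular mesenchyme. Of all genes 20.9% were called between the epithelia (11.2% higher and 9.72% lower in parotid). Between the mesenchymes 34.5% were called (20.8% higher and 13.7% lower in parotid). Tgm2, a transglutaminase gene, averaged 86.1 ± 26.9 CPM in the parotid, against 21.1 ± 14.4 CPM in submandibular epithelium (fold change 2.02 on the log2 scale, SE 0.46, adjusted p = 0.00631), a call lost without the 3 epithelial libraries of high mesenchymal marker sum (1.44, adjusted p = 0.113). Bhlhe40, a helix-loop-helix repressor gene, was higher in parotid mesenchyme at 7.55 ± 3.77 CPM, against 3.54 ± 1.17 CPM in submandibular mesenchyme (fold change 1.08 on the log2 scale, SE 0.35, adjusted p = 0.0244). That call was lost without parotid mesenchyme replicate 1 or 2 or submandibular mesenchyme replicate 3 or 4 (adjusted p = 0.0534 to 0.108), with library totals (0.0524), with no filter (0.0821) and in limma-voom (0.143). Between the layers all 8 were called in the parotid gland, with 5 higher in epithelium and 3 lower, and 7 in the submandibular gland, 5 higher and 2 lower, where 64.9% and 67% of all genes were called. Of all genes 31.4% were higher and 33.5% lower in parotid epithelium, and 33.3% higher and 33.7% lower in submandibular epithelium. Meis1, a homeobox gene, averaged 325 ± 12.7 CPM in parotid epithelium, against 17.03 ± 6.499 CPM in parotid mesenchyme (fold change 4.26 on the log2 scale, SE 0.21, adjusted p = 4.95e-11), and 351 ± 7.14 CPM in submandibular epithelium, against 45.8 ± 6.44 CPM in submandibular mesenchyme (fold change 2.94 on the log2 scale, SE 0.20, adjusted p = 1.40e-09). On the mesenchymal side Rarres2, which encodes the chemoattractant chemerin, averaged 0.422 CPM in parotid epithelium, against 9.85 ± 3.25 CPM in parotid mesenchyme (fold change -4.54 on the log2 scale, SE 0.47, adjusted p = 2.08e-07; -5.78 without the 3 epithelial libraries of high mesenchymal marker sum). In the submandibular gland Rarres2 averaged 0.161 CPM in epithelium and 22.9 ± 4.71 CPM in mesenchyme (fold change -7.25 on the log2 scale, SE 0.54, adjusted p = 3.55e-09; -8.16 without submandibular epithelium replicate 3). Bhlhe40 was higher in submandibular epithelium, at 55.1 ± 18.2 CPM, than in submandibular mesenchyme (fold change 3.96 on the log2 scale, SE 0.36, adjusted p = 7.35e-08). The interaction was called for 7 of the 8, 5 above and 2 below 0, where 8.67% of all genes lay above and 12.2% below. That of Bhlhe40 was -1.56 (adjusted p = 0.0253), and its call was lost without the 3 epithelial libraries of high mesenchymal marker sum, with no filter, in limma-voom and in 5 fits that left out 1 library. The 10 genes hold further genes known to respond to retinoic acid, among them Rarb, Cyp26a1 and Dhrs3. Between the mesenchymes Rarb and Cyp26a1 were lower in parotid and Dhrs3 was not called. Whether these genes respond together was not tested.

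**Figure D5:**
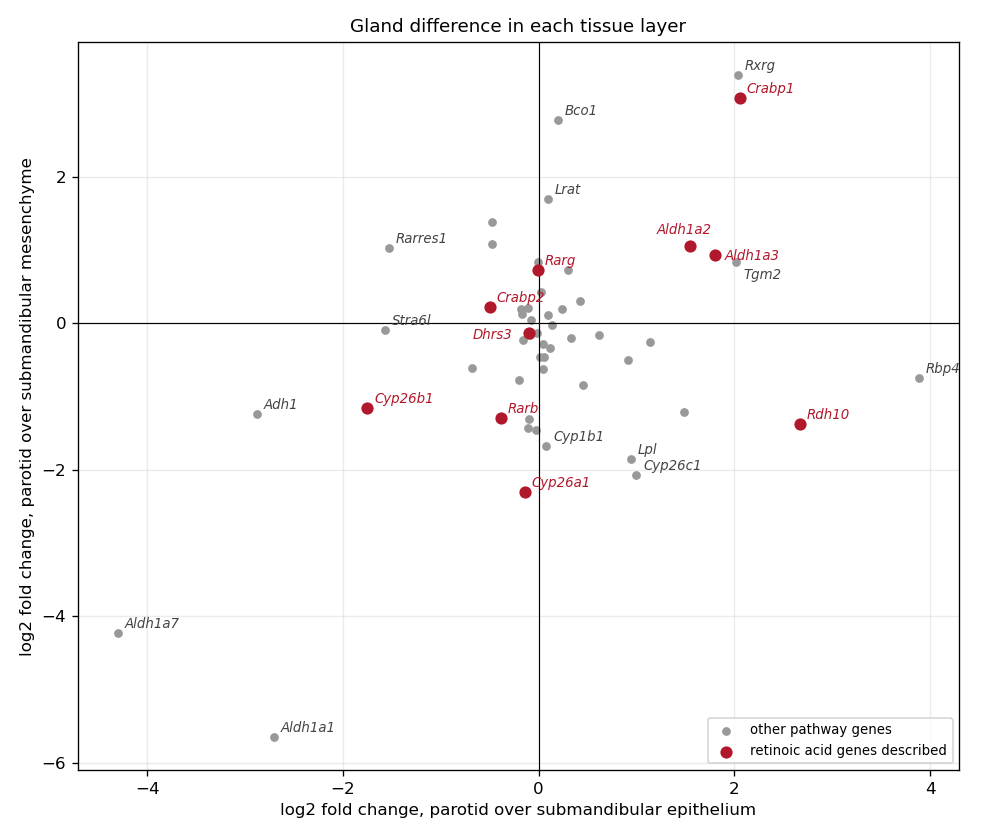
Log2 fold change, parotid over submandibular, in epithelium (horizontal) and in mesenchyme (vertical) for the 10 genes (red) and the 45 other retinoid genes tested (grey). Rdh10 lies at 2.67 and -1.38, in the lower right with Rbp4, while Crabp1 lies at the upper right with Rxrg, and Aldh1a1 and Aldh1a7 at the lower left, where the fitted value of Aldh1a1 in mesenchyme rests on 2 counts in parotid.

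The genes whose pattern over the 16 libraries was most like that of each member were named by the smallest root mean square difference of centred log2 CPM among 11470 genes that averaged 10 CPM or more in 1 group, a description with no test. Rarg was closest to Npepps (0.11) and Micall1 (0.14), Crabp2 to Akr1e1 (0.12) and Cnep1r1 (0.13), and Rarb to Dync2li1 (0.20) and Fuca2 (0.21). Dhrs3 was closest to Cnst (0.26) and Frrs1 (0.29), and Aldh1a3 to Rhoj (0.39) and Gng7 (0.40). Rdh10 was closest to Doc2b (0.49) and Gpm6b (0.55), genes of vesicle fusion and of a membrane proteolipid, which were also lowest in submandibular epithelium (0.78 and 32.4 CPM) and highest in submandibular mesenchyme (12.4 and 273 CPM). Cyp26a1 was closest to Bdh1 (0.53) and Dpp4 (0.60), and Cyp26b1 to Decr1 and Crybg3 (0.53 each). Aldh1a2 was closest to Adam12 (0.77) and Ccdc85a (0.78), and Crabp1 to Shisa9 (0.62) and Slc44a5 (0.64). Members with little variation, such as Rarg and Crabp2, can lie close to many genes by this measure, so the distances are to be read against each member's own spread, an SD of log2 CPM of 0.33 for Rarg and 4.16 for Aldh1a2. Among the members the closest pair was Crabp2 and Rarg (0.45), followed by Crabp2 and Rarb (0.56) and Cyp26b1 and Rarb (0.67).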

How the data were processed

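RNA of the 16 libraries had been made into sequencing libraries with SMART-Seq v4 and Nextera XT, a kit combination that does not mark strand, per the labels' protocols. STAR 2.5.2a, edgeR and the builds GRCm38 and mm10 are named per the submitters' processing notes. As for the read counter and its annotation, neither is given in the sources used here. The authors deposited raw read counts per gene, and a signal table that they name CPM with TMM scaling, which was used for gene symbols and as a check. Counts of 92 ERCC spike-in features were left out. The CPM values printed were recomputed from the deposited counts with TMM factors and differed from the deposited ones by at most 4.3%. Genes were filtered with filterByExpr, which kept at least 99.88% of the counts of each library, and 1 robust quasi-likelihood model over all 16 libraries gave the 5 contrasts, with Benjamini-Hochberg adjustment over 18191 genes (R 4.3.3, edgeR 4.0.16). Log2 fold changes come from that model and ratios from the group means, intervals are 2 SE, and levels per kilobase use the summed exon length of the GENCODE annotation of GRCm38. The scripts were tested on simulated counts.

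The members and all lists were chosen with earlier results of these data known. All 10 members are named, and of the other genes up to 3 called in each direction with the largest change and a mean of at least 5 CPM in 1 group, with Rara, Aldh1a1 and Cyp26c1 in any case. Alternatives were other scaling, no filter, DESeq2 1.42.0, limma-voom (limma 3.58.1), only the 8 libraries compared, a replicate block, each library left out, and 3 epithelial libraries left out together. No pair of libraries of a group agreed within sampling noise (chi-square per gene 9.67 to 49.4 in 24 pairs). The p-values measure the spread between libraries whose pooling of embryos is not given.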

Additional observations from a re-analysis of the deposited data

Results flagged for a closer look

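In submandibular mesenchyme, replicate 4 stood far from the other 3 libraries for a pair of genes. Aldh1a2 was at 439.8 CPM there with the next library at 241.3 CPM, and Crabp1 at 31.42 CPM with the next at 17.7 CPM. These were 2 of 40 sets of 4 libraries examined by Dixon's criterion, where chance gives about 1 in 20.

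The gland difference differed between epithelium and mesenchyme, by the interaction of gland and layer in edgeR's quasi-likelihood test, for 5 genes. On the log2 scale the interaction was 4.06 for Rdh10, 2.17 for Cyp26a1 and 0.92 for Rarb, and -0.72 for Crabp2 and -0.73 for Rarg. Without submandibular mesenchyme replicate 4, where Cyp26a1 was also highest, the interaction of Cyp26a1 was 1.66.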

How the results depend on the processing

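Of 1190 values of the 50 fold changes of the 10 genes under 24 alternative settings, 1114 kept their direction and their side of the threshold, 36 lost a call, 17 gained one and 23 changed sign, none of which was called. Between the epithelia Rarg had log2 fold changes of 0.01 with size factors, 0.03 with no filter, 0.01 in DESeq2, 0.09 without the 3 epithelial libraries and -0.10 to 0.11 with 1 library left out. Cyp26a1 had 0.37 without the 3 libraries and -0.28 to 0.10 with 1 left out, and Dhrs3 -0.29 to 0.01. The interaction of Dhrs3 was -0.02 in limma-voom, -0.02 with the replicate block, -0.18 without the 3 libraries and -0.16 to 0.16 with 1 left out, and that of Aldh1a2 was -0.48 to 1.12 with 1 left out. The cause was not tested. Without the 3 epithelial libraries, which leaves fewer samples, 1499 genes were called between the epithelia in place of 3801, 9 of the 45 other retinoid genes in place of 14, and the interaction was called for 3 of the 10 genes in place of 5. With 1 library left out, 2452 (submandibular epithelium replicate 1) to 4540 genes were called between the epithelia. The members called were then 5 to 6 between the epithelia, 7 between the mesenchymes, 6 to 8 between the layers of each gland and 4 to 7 in the interaction. The other retinoid genes called were 10 to 17, 20 to 24, 31 to 33, 30 to 34 and 14 to 17. Of 690 alternative values of the 29 named fold changes of other retinoid genes, 663 kept their call, 27 lost it and 0 changed sign. The labels do not say whether replicate numbers pair the libraries. Correlations of deviations of same-numbered libraries were -0.12 to 0.218, 3 of 24 were over 0.1 and 7 of 24 were the best for their library. Such correlations over few libraries cannot exclude pairing. With the replicate block 3980 genes were called between the epithelia and 6343 between the mesenchymes, the members called stayed at 5, 7, 8, 7 and 5 in number, and the call of Rbp4 between the epithelia was lost (adjusted p = 0.0511). Genes at a few counts, such as Cyp26c1 and Aldh1a1 in mesenchyme, are limited by depth.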
